A study of Mus musculus with 4 samples.

Results

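Pax2, Pax8, Lhx1, Gata3, Ret, Gfra1, Wfdc2, Cdh16 and Osr1 are 9 genes of the early nephric and rete-related epithelium. They were followed through 4 single-cell RNA libraries, of XY mouse gonads and of an embryonic stem cell culture enriched for gonadal somatic cells. The genes were taken by symbol from the gene list, which gave all 9 of 9 sought among 31053 genes, and their values were read in the cells that passed the gene and mitochondrial limits of the study. Values are given in 1 order throughout unless a library is named: first the E10.5 library (3837 retained cells), then the E11.5 library (2101 cells), then the E12.5 library (2764 cells) and last D6 (2285 cells). Each condition was 1 library, so no difference between conditions was tested, and every interval given is a 95% interval (exact Poisson for counts of unique molecular identifiers, UMIs, and Clopper-Pearson for shares) that covers counting error only.

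The in vivo libraries came from XY gonads of ICR embryos, prepared with version 2 of the 10x Genomics 3′ kit. The methods state that the E10.5 sample kept the dorsal mesenchymal tissue around the gonads and that the mesonephros was taken off at E11.5 and E12.5. D6 held XY cells on day 6 of culture from 1 stem cell line, labelled C57BL/6J (N271S9C), with the reporters Nr5a1-hCD27a, as the labels spell it, and Sox9-2A-CGFP. By the methods its parent Nr5a1-hCD271 line came from 129X1/SvJ mothers and C57BL/6J fathers, a mixed background. These cells passed through media with CHIR, BMP4 and EGF, then retinoic acid, SHH and PD, then BMP4, FGF9 and IWR1. They were enriched by magnetic sorting on the Nr5a1 reporter and were prepared with version 3 of the kit. By the paper, reporter-positive cells were still a minority after that sort. Strain, kit, culture and sort all separate D6 from the embryos and cannot be told apart from cell origin. In the same way, stage and dissection cannot be told apart between E10.5 and the later gonads.

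In the embryo, the nephric duct and the mesonephric tubules arise from intermediate mesoderm beside the gonad. Osr1 acts early in that mesoderm. Pax2 and Pax8, paired-box factors, and Lhx1, a LIM homeodomain factor, are required to form the nephric lineage, and Gata3 acts in the duct. Ret and its co-receptor Gfra1 receive the GDNF signal that guides duct growth and, in the later testis, maintains spermatogonial stem cells. Cdh16 is the kidney-specific cadherin and Wfdc2 a secreted protein of epithelia that includes the genital tract. Pax8 is also a marker of supporting-like cells, a gonadal population that contributes to the rete testis, the tubules that join the testis to ducts of mesonephric origin.

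The libraries held 11906360 to 34173977 UMIs in retained cells, with a median per cell of 4607 at D6 and of 8167 to 11926 in the embryos. A Y-linked transcript (Ddx3y, Uty, Kdm5d or Eif2s3y) was found in 55.7 to 80.5% of cells and Xist in at most 1.05%, as the titles give XY although the extraction text in the labels speaks of female gonads. Nr5a1, the gonadal somatic factor that the D6 sort used, was at 3.11, 67.9, 44.9 and 161 UPM (UMIs of the gene per 1000000 UMIs of all genes in the same cells, the scale of every level given here). Retained barcodes shared between any pair of libraries numbered 0 to 15.

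By GENCODE vM21 on GRCm38, 3 members lie on chromosome 2: Gata3 (9857078 to 9890034, minus strand), Pax8 (24420560 to 24475599, minus) and Wfdc2 (164562413 to 164568510, plus). Pax2 (44756045 to 44837871, plus) and Gfra1 (58235604 to 58455909, minus) are on chromosome 19. Lhx1 is on chromosome 11 (84518284 to 84525535, minus), Osr1 on 12 (9570116 to 9581500, plus), Ret on 6 (118151745 to 118197718, minus) and Cdh16 on 8 (104601911 to 104624396, minus). Gata3 is the only member that a measured gene overlaps on the same strand, 9230102O04Rik (9883041 to 9889540). The overlap lies towards the 5′ end of Gata3, away from the 3′ end that the kit reads, and how reads in it were counted was not examined. Measured genes on the opposite strand overlap Pax2, Gata3 and Gfra1, and whether the counting used strand is not given in the sources used here.

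Promoter windows of 6 members, Pax2, Pax8, Lhx1, Gata3, Gfra1 and Wfdc2, were given by RefSeq (GRCm38.p6). Those of Pax8 and Lhx1 are shown because both genes were detected together at E10.5, whereas Lhx1 of the later gonads was found almost wholly in germ cells. The 250 bases before each start are written 5′ to 3′ on the minus strand, chr2:24475600-24475849 for Pax8 and chr11:84525535-84525784 for Lhx1, and capitals mark the motif CCAAT on either strand.
Pax8: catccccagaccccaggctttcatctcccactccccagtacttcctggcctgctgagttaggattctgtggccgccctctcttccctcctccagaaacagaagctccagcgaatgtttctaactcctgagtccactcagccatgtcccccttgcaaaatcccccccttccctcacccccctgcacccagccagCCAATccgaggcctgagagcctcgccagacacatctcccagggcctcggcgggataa
Lhx1: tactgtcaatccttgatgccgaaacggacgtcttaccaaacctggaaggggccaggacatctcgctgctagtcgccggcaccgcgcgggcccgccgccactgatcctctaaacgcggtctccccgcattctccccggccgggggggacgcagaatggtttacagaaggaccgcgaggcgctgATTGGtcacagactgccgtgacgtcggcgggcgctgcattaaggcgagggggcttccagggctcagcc
Each window held 1 CCAAT motif, as did that of Gfra1, and 33.8% of the 32851 promoter windows of this length in the table hold at least 1. The TATAAA motif was in 12.4% of all windows and in none of the members' windows. A match is a description of the letters and not of binding.

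Osr1 gave 1057, 118, 102 and 254 UMIs, or 32.5 (30.6 to 34.5), 4.79 (3.97 to 5.74), 2.98 (2.43 to 3.62) and 21.3 (18.8 to 24.1) UPM. E10.5 was highest, D6 next, and no neighbouring intervals in this order overlapped. The share of cells with an Osr1 UMI was 15.3, 4.05, 2.64 and 8.49%.

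Pax8 gave 153, 116, 73 and 196 UMIs. Its level was 4.71 (3.99 to 5.51), 4.71 (3.89 to 5.65), 2.14 (1.67 to 2.69) and 16.5 (14.2 to 18.9) UPM. D6 stood above the embryos, and E10.5 and E11.5 did not differ beyond their intervals. A Pax8 UMI was found in 95 cells (2.48%, 2.01 to 3.02), 67 cells (3.19%, 2.48 to 4.03), 44 cells (1.59%, 1.16 to 2.13) and 97 cells (4.25%, 3.46 to 5.15). At E11.5 9 of 178 germ cells (5.06%) held 1 Pax8 UMI each, at a median depth of 17572 UMIs against 11669 for the rest, of which 3.02% held one. By level the order was the other way, 3.11 UPM in germ cells against 4.92 UPM in the rest. At E12.5 12 of the 44 Pax8 cells were germ cells, 2.69% of 446 germ cells against 1.38% of the rest. There too the level was lower in germ cells, 1.40 against 2.38 UPM, and the germ cells were deeper (medians of 18636.5 and 10074 UMIs).

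Pax2, the paralogue of Pax8, did not follow it. Pax2 gave 127 UMIs in 75 cells, 10 in 10 cells, 16 in 16 cells and 20 in 11 cells. The levels were 3.91 (3.26 to 4.65), 0.406 (0.195 to 0.747), 0.468 (0.268 to 0.760) and 1.68 (1.03 to 2.59) UPM. At E10.5 31 cells held at least 2 Pax2 UMIs, whereas no cell did at E11.5 or E12.5. In cells with at least 4 of 7 endothelial markers, a type that should lack Pax2, 2 of 46 at E11.5 and 1 of 36 at E12.5 held a UMI, 4.35 and 2.78%, beside 0.389 and 0.550% of the other cells. The endothelial cells were deeper, with medians of 17827 and 15293.5 UMIs against 11848 and 10924. The intervals of these endothelial shares were wide, 0.531 to 14.8% and 0.0703 to 14.5%. Of the 16 Pax2 cells of E12.5, 14 held Wt1, 10 Nr5a1 and 12 Sox9 (87.5, 62.5 and 75.0%), against 53.5, 31.8 and 32.5% of the other cells.

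Over all cells of a library, Lhx1 took the opposite course, with its lowest level at E10.5. It gave 85, 130, 458 and 48 UMIs, or 2.61 (2.09 to 3.23), 5.28 (4.41 to 6.27), 13.4 (12.2 to 14.7) and 4.03 (2.97 to 5.35) UPM. E12.5 stood apart, and the intervals of E11.5 and D6 and of D6 and E10.5 overlapped. Outside germ cells, taken by markers as below, the level was 2.63, 0.184, 0.117 and 4.04 UPM. There E10.5 stood above the later gonads.

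Gata3 gave 834, 32, 33 and 84 UMIs, or 25.7 (23.9 to 27.5), 1.30 (0.889 to 1.83), 0.966 (0.665 to 1.36) and 7.06 (5.63 to 8.73) UPM. E10.5 was 19.7-fold above E11.5 (13.9 to 29.1) and 26.6-fold above E12.5 (18.8 to 38.9), and the later gonads did not differ beyond their intervals.

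Ret was sparse in every library, with 41, 2, 18 and 3 UMIs. Its level was 1.26 (0.905 to 1.71), 0.0812 (0.00984 to 0.293), 0.527 (0.312 to 0.832) and 0.252 (0.0520 to 0.736) UPM. Gfra1, its co-receptor, gave 59, 44, 58 and 19 UMIs. Its levels of 1.81 (1.38 to 2.34), 1.79 (1.30 to 2.40), 1.70 (1.29 to 2.19) and 1.60 (0.961 to 2.49) UPM all overlapped.

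Wfdc2 gave 1106, 184, 284 and 96 UMIs, or 34.0 (32.0 to 36.1), 7.47 (6.43 to 8.63), 8.31 (7.37 to 9.34) and 8.06 (6.53 to 9.85) UPM. E10.5 stood above the other libraries, which overlapped. Cdh16 gave 38 UMIs in 23 cells, 6 in 3 cells, 0, and 4 in 4 cells. Its level outside E12.5 was 1.17 (0.827 to 1.60), 0.244 (0.0894 to 0.530) and, for D6, 0.336 (0.0915 to 0.860) UPM. The 0 of 2764 cells at E12.5 allow, by a limit of 3 counts, a share of up to 0.109% and a level of up to 0.0878 UPM.

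**Figure D1:**
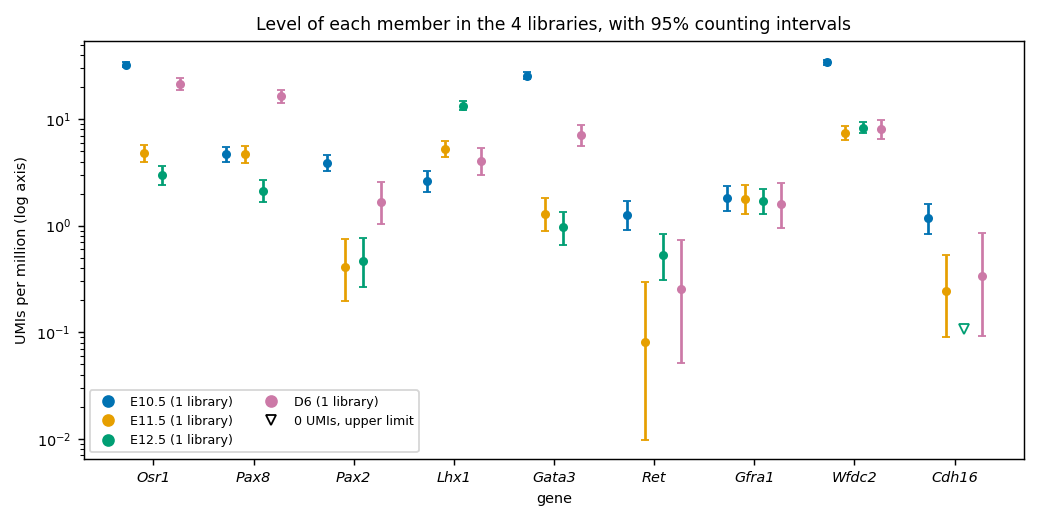
UPM (log axis) of each member in the 4 libraries, 1 point per library with its 95% counting interval; the open triangle is the upper limit of Cdh16 at E12.5, where no UMI was found. Osr1, Gata3 and Wfdc2 were highest at E10.5 (32.5, 25.7 and 34.0), Pax8 at D6 (16.5) and Lhx1 at E12.5 (13.4), while the Gfra1 points lie together.

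Counted past 2-fold, 6 of the 9 members were higher at E10.5 than at E11.5 (Pax2 9.62-fold, Gata3, Ret 15.5-fold with 2 UMIs at E11.5, Wfdc2 4.55-fold, Cdh16 4.80-fold and Osr1 6.79-fold). Among the 14815 genes with at least 20 UMIs in the pair of libraries, 10.7% were higher by as much. Over all cells Lhx1 was lower at E10.5, by 2.02-fold (1.52 to 2.69), where 16.9% of genes were. Outside germ cells Lhx1 was higher at E10.5, 2.63 against 0.184 UPM. Pax8 (ratio 0.999, 0.780 to 1.28) and Gfra1 (1.02, 0.676 to 1.54) lay near 1.

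Against E12.5, 7 of 9 were at least 2-fold higher at E10.5, the same 6 and Pax8 (2.20-fold, 1.66 to 2.95), beside 11.1% of 15075 genes. Cdh16 was at least 13.3-fold higher, with E12.5 set at the floor of 3 UMIs (lower exact limit of the ratio 10.3). Lhx1 was again the lower member over all cells, by 5.13-fold (4.06 to 6.54), beside 17.3% of genes. Outside germ cells it was higher at E10.5, 2.63 against 0.117 UPM. Both comparisons use the E10.5 library.

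At D6, 4 of the 7 members with at least 20 UMIs over both libraries were at least 2-fold above E11.5, beside 30.1% of 14454 genes. They were Pax2 (4.14-fold, 1.85 to 9.90, from 20 and 10 UMIs), Pax8 (3.49, 2.76 to 4.44), Gata3 (5.43, 3.57 to 8.43) and Osr1 (4.45, 3.56 to 5.59). No member was 2-fold lower, where 10.1% of genes were. The median gene itself stood 0.400 higher at D6 on the log2 scale, and scaling with edgeR's TMM factors shifts every D6 to E11.5 ratio by -0.51 and the median to -0.11. With TMM factors 17.5% of genes were 2-fold higher and 19.6% lower in this comparison, and 18.8 and 21.4% in that with E12.5.

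Against E12.5, 4 of 8 were higher at D6 (29.6% of 14782 genes), Pax8 by 7.71-fold (5.86 to 10.2) and Osr1 by 7.15-fold (5.66 to 9.08), and Gata3 and Pax2 by 7.31 and 3.59-fold. Lhx1, 3.32-fold (2.47 to 4.57), and Ret, 2.09-fold (0.610 to 11.1), were lower, as 12.1% of genes were. Outside germ cells Lhx1 was at 4.04 UPM at D6 against 0.117 at E12.5. Ret, with 3 UMIs at D6, was there at 0.252 against 0.117 UPM. The same members passed the limit with TMM factors in all 4 comparisons.

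The cells with Pax8 differed between E10.5 and the other libraries in what else they held. At E10.5, Pax2 was found in 42 of the 95 Pax8 cells, 44.2% (34.0 to 54.8), against 0.882% of the other 3742 cells. Lhx1 was in 20 of the Pax8 cells, 21.1% against 0.882%, and Cdh16 in 14, 14.7% against 0.241%. Wfdc2 was in 52, 54.7% (44.2 to 65.0) against 12.7%, Gata3 in 25, 26.3% against 12.8%, and Gfra1 in 6, 6.32% against 1.28%. Ret, at 1.05 against 0.909%, and Osr1, at 21.1 against 15.2%, stayed under 2-fold.

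Thus 6 of the 8 other members passed 2-fold at E10.5, beside 10.3% of 13088 genes detected in at least 20 cells. Pax8 cells were slightly deeper than the rest, with a median of 8989 UMIs against 8144. When every cell was thinned to 1500 UMIs, 20 Pax8 cells were left and Pax2 was in 5 of them (25.0%) against 0.367% of other cells. Of all cells with Pax2, 56.0% also held Pax8, and of those with Cdh16, 60.9% did.

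At E11.5, Pax2 was in 2 of 67 Pax8 cells, Lhx1 in 4, Wfdc2 in 5, Osr1 in 3, Gfra1 in 2, Cdh16 in 1 and Ret in 0. Of the 5 members detected in 20 cells or more, only Gata3 passed 2-fold, in 8 Pax8 cells, 11.9% (5.30 to 22.2) against 0.787%, and 7.61% of genes passed in that library. At E12.5, Pax2, Ret, Gfra1, Cdh16 and Osr1 were in 0 of 44 Pax8 cells. Gata3, in 3 of them (6.82% against 0.956%), was again the member that passed of 5, beside 8.09% of genes, and Lhx1, in 6 (13.6% against 9.71%), and Wfdc2, in 2, did not. Germ cells made up 12 of these 44 cells, and 455 of the 458 Lhx1 UMIs of E12.5 were in germ cells.

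At D6, Gata3 (5 of 97 cells, 5.15% against 2.38%) and Wfdc2 (7 cells, 7.22% against 2.19%) passed of the 3 members that could be read, beside 8.52% of genes. Lhx1 was in 5 Pax8 cells and Pax2 in 3, while Gfra1 and Cdh16 were in 0. Without the cells of highest Scrublet score, 135 at E10.5 and 45 at D6, Gata3 no longer passed in either of these libraries.

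**Figure D2:**
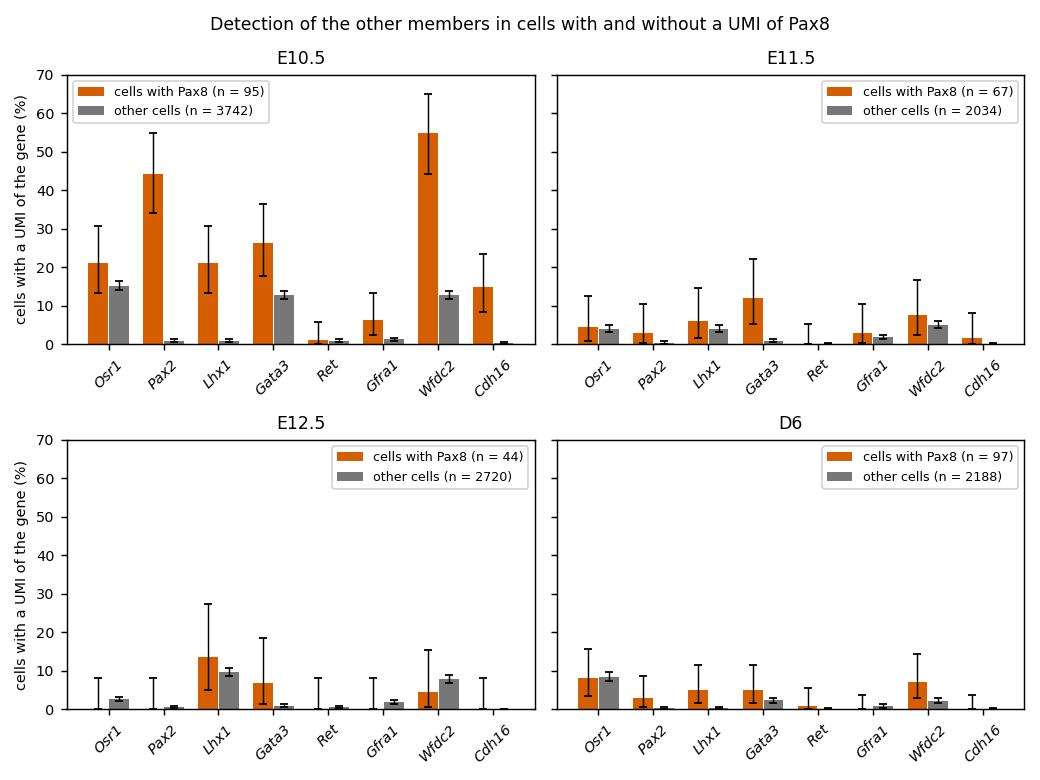
Percent of cells with a UMI of each other member among cells with (orange) and without (grey) a Pax8 UMI, 1 panel per library, with 95% Clopper-Pearson intervals. At E10.5 the orange bars of Pax2 (44.2%), Lhx1 (21.1%), Wfdc2 (54.7%) and Cdh16 (14.7%) rise far above the grey, and in the other libraries no orange bar exceeds 13.6%.

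Gonadal genes were found with Pax8 to differing degrees. Of those listed and found in enough cells, 2 of 8, 0 of 10, 0 of 10 and 3 of 10 were at least 2-fold more frequent in Pax8 cells. The shares of all genes were 10.3, 7.61, 8.09 and 8.52%. By the same limit 1, 4, 3 and 2 were less frequent, a direction for which the share of all genes was not computed. Pdgfra was among the less frequent gonadal genes in every library, and Lhx9 at E11.5 (8.96% against 48.4%) and E12.5. Nr5a1 was in 8.42, 49.3, 43.2 and 59.8% of Pax8 cells, against 1.71, 34.3, 31.8 and 27.7% of the other cells. At E10.5 all 8 Pax8 cells with Nr5a1 were among the 53 without Pax2, and 0 of the 42 with Pax2 held it. Wnt4, a ligand of both the early kidney and the gonad, was in 43.2, 59.7, 13.6 and 85.6% of Pax8 cells, against 9.06, 16.2, 9.60 and 57.3% of the rest. C1qtnf12, a supporting-like cell marker, was in 55.8, 74.6, 72.7 and 53.6% of Pax8 cells, against 14.4, 34.9, 37.3 and 15.3% of the rest. Id1 and Id2, which the paper names for the same population, stayed under 2-fold in every library, as C1qtnf12 did at E12.5. Of the cells without Pax8, 73.4% held Id2 at E10.5 and 71.98% at D6, and 55.1% held Id1 at E10.5. In these cases 2-fold could not be reached, and for Id2 at E11.5 (49.2% of cells without Pax8) it nearly could not. The paper compared Id1 and Id2 between clusters of supporting cells, which was not tested here. Id1 came nearest at E12.5 (61.4% against 32.2%) and was flat at D6 (48.5% against 46.5%). Itm2a was less frequent in Pax8 cells of E10.5 (20% against 45.6%) and under 2-fold in the other libraries. In those libraries 50.1, 63.2 and 55.5% of the cells without Pax8 held Itm2a, so 2-fold could not be reached.

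Genes whose detection was most like that of Pax8 over the cells of a library, by the phi coefficient, differed too. Pax2 itself led at E10.5 (phi 0.49 over 3837 cells). Outside the members Clec18a (0.38), Plet1 (0.31), Gpx6 (0.30), Emid1 (0.30) and Mal (0.28) followed. At E11.5 the leaders were G6pc2 (0.35 over 2101 cells), Plbd1, Enpp2, Greb1 and Rmst (0.22). At E12.5 they included Rmst (0.21 over 2764 cells), Gdpd2, Egfl6 and Mid1ip1, and at D6 Rmst (0.42 over 2285 cells), Sorl1, Alb, Tbx1 and Trank1 (0.29). Rmst, a long non-coding RNA, is the gene shared by the leaders of E11.5, E12.5 and D6. Cells of a library share its depth, so phi is a description.

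To see which cells held each member, the cells of each library were clustered on 2000 variable genes with the members and all listed markers left out. At E10.5 the members met in a pair of clusters. Cluster 12 (153 cells, led by Gcg, Rbp4, Cldn6, Nepn and Pyy) held all 38 Cdh16 UMIs, 510 of 1106 for Wfdc2, 124 of 834 for Gata3, 38 of 127 for Pax2, 36 of 153 for Pax8 and 21 of 85 for Lhx1. Cluster 13 (97 cells, led by Aldh1a2, Osr2, Gpx6, Pax8 and Sfrp2) held 50 Pax8, 35 Pax2 and 22 Lhx1 UMIs and 0 of Cdh16. Neither could be named by the markers, since cluster 12 mixed endoderm and epithelial genes. The split depended on the clustering. With 20 principal components, a cluster of 87 cells led by Calb1, Wfdc2, Cldn8, Pax8 and Pax2 took the name nephric-epithelium-like by 9 of 10 markers, beside a separate endoderm-like cluster of 84 cells. At resolution 2, Gpx6, Sfrp2 and Pax8 were among the leading genes of a neural-like cluster of 65 cells. At resolution 0.5, Pax8 was among the leading genes of no cluster.

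Within cluster 12, of the 38 cells with Pax8 or Pax2, 0 held Ttr, 0 Foxa1 and 0 Foxa2, while of the other 115 cells 59, 56 and 30 did. The same 38 cells held Emx2 (86.8%), Gata3 (68.4%), Calb1 (60.5%), Cdh16 (50.0%), Lhx1 (28.9%) and Wnt9b (21.1%), against 10.4, 14.8, 8.70, 3.48, 5.22 and 0.870% of the others. Emx2 is a factor of urogenital epithelium, Calb1 encodes calbindin of the nephric duct and Wnt9b its Wnt ligand. Wfdc2 was not held to these cells, being in 36 of the 38 and in 81 of the 115 (70.4%), and Epcam, an adhesion protein of epithelia, was in 37 and in 107.

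In cluster 13, the 21 cells with Pax8 or Pax2 carried a different set. Osr2 (85.7%), Wnt4 (85.7%), Wt1 (81.0%), Wfdc2 (71.4%) and Lhx1 (42.9%) were frequent. The other 76 cells of the cluster held them in 14.5, 32.9, 71.1, 6.58 and 0%, so Wt1 was frequent in both. Emx2 was in 38.1% of the 21 and in 60.5% of the others. Gata3, Cdh16, Ret and Wnt9b were in 0 of 21, which allows at most 16.1% by the interval. Of the other cells, 27.6% held Gata3. Epcam was in 4 of the 21 (19.0%, 5.45 to 41.9). In cluster 12 the corresponding cells held Osr2 in 1, Wt1 in 1 and Wnt4 in 3 of 38. The intervals of the clusters did not overlap for Gata3 (51.3 to 82.5 in cluster 12), Cdh16 (33.4 to 66.6), Emx2 (71.9 to 95.6 against 18.1 to 61.6), Calb1, Epcam, Osr2, Wnt4 or Wt1. They overlapped for Lhx1, Wfdc2 and Wnt9b. These are descriptions and not tests, since the clusters were built on genes that include Osr2 and Wnt4. Only chosen genes were read, and the share of all genes whose intervals part between the same cells was not computed. Cells of different clusters differ in many genes by the way clusters are made. Pax8 and Pax2 appeared at E10.5 in cells with Epcam, Gata3, Emx2 and Cdh16 and in cells with Osr2, Wnt4 and Wt1. Of these genes, Epcam in cluster 12 and Wt1 in cluster 13 were also frequent in the other cells of the cluster.

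**Figure D3:**
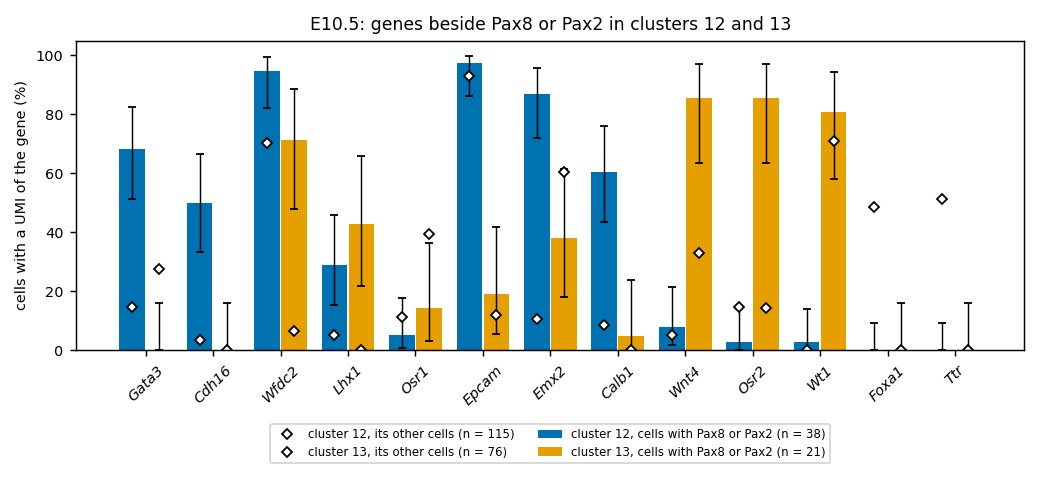
Percent of cells with a UMI of each gene among cells with Pax8 or Pax2 in clusters 12 (blue, 38 cells) and 13 (orange, 21 cells) at E10.5, with 95% intervals; diamonds give the other cells of the same cluster (115 and 76). Gata3, Cdh16, Epcam, Emx2 and Calb1 stand high in blue, Wnt4, Osr2 and Wt1 in orange, and Foxa1 and Ttr appear in the other cells of cluster 12 alone.

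Not all Pax8 and Pax2 lay there. The coelomic-epithelium-like cluster 3 (334 cells, with Lhx9 and Wt1 among its leading genes) held 19 Pax8 and 16 Pax2 UMIs, and the neural-like cluster 8 (185 cells) held 7 and 9. In 57 endothelial cells of E10.5, by at least 4 of 7 markers, Pax8 was in 2 (3.51%), no less than the 2.46% of the rest, and Pax2 in 1 (1.75% against 1.96%), at median depths of 10444 and 8149.5 UMIs. The interval of the endothelial share of Pax8 ran from 0.428 to 12.1%, and whether the cells outside clusters 12 and 13 stand above background was not tested.

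Cells with at least 3 members were most frequent at E10.5. Here 94 of 3837 cells of E10.5 held at least 3 of the 9 (2.45%, 1.98 to 2.99), of which 25 held 4, 15 held 5 and 2 held 6. The other libraries had 5 such cells (0.238%, 0.0773 to 0.554), 4 (0.145%, 0.0394 to 0.370) and 4 (0.175%, 0.0477 to 0.448). The 94 cells of E10.5 had a median of 8935.5 UMIs against 8149 for the rest of the library. Gata3, Wfdc2 and Osr1 were each in more cells there, 13.1, 13.7 and 15.3% against 1.14, 5.09 and 4.05% at E11.5. The shares of Pax8, Lhx1 and Gfra1 were lower there than at E11.5. How many cells with 3 members the single shares would give was not computed, so these counts alone do not show joint detection.

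Of the 94 cells, 41 were in cluster 12, 17 in cluster 13, 10 in cluster 3 and 6 in the neural-like cluster 8. The 41 cells all held Epcam, and 39 held Wfdc2, 36 Emx2, 32 Gata3, 25 Pax8, 24 Pax2 and 23 Cdh16. The 17 held Pax2 in 15, Wfdc2 in 15, Pax8 in 14, Lhx1 in 9 and Gata3 in 0. The 6 neural-like cells held Tubb3, a neuronal tubulin, in 5, with Lhx1 and Pax2 in 4 each. Outside the members, Plet1 (phi 0.46), Mal (0.45), Calb1 (0.44), Clec18a (0.40) and Cldn8 (0.39), a tight-junction claudin, were most like this set of cells at E10.5. The sets of 4 or 5 cells in the other libraries are too small for that measure to be read.

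**Figure D4:**
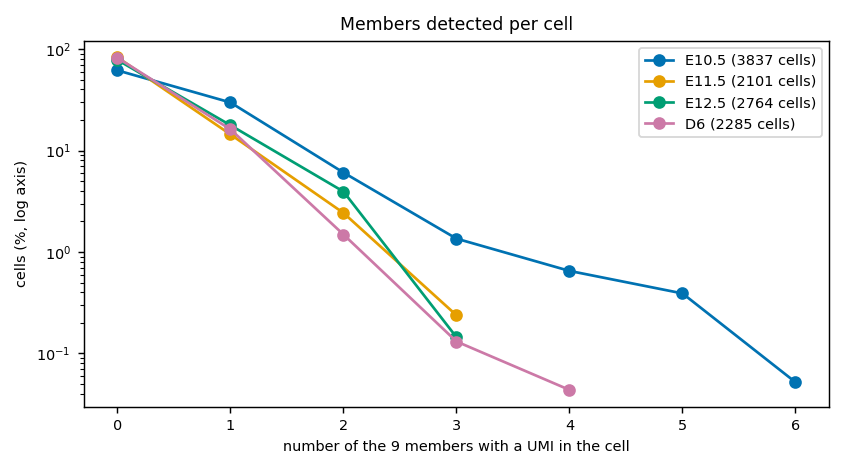
Percent of cells (log axis) by the number of the 9 members with a UMI, 1 line per library; points at 0 cells are left out. The E10.5 line reaches 6 members and holds 94 cells at 3 or more, against 5, 4 and 4 in the other libraries.

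Pairs of members at E10.5 were compared with the number of cells that the product of their shares gives. Pax2 and Pax8 met in 42 cells against 1.86, Pax2 and Lhx1 in 24 against 1.04, Pax8 and Cdh16 in 14 against 0.569, and Gata3 and Cdh16 in 20 against 3.02. Osr1 met Gata3 in 81 cells against 77.0, Pax8 in 20 against 14.5, and Lhx1 in 4 against 8.11. Ret and Gfra1, receptor and co-receptor, shared 3 cells against 0.493. Other pairs with Gfra1 showed a like excess, Lhx1 with 5 against 0.746 and Pax2 with 6 against 1.06.

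Several members were carried mostly by other cells. Lhx1 in the later gonads was in the germ line. Germ cells taken as cells with at least 4 of 8 germ markers, a limit set after the clusters were seen, held 126 of 130 Lhx1 UMIs at E11.5 and 455 of 458 at E12.5. Lhx1 was found in 80 of 178 germ cells at E11.5, 44.9%, and in 268 of 446 at E12.5, 60.1%, against 0.208 and 0.0863% of the other cells. The germ cells were deeper, with medians of 17572 and 18636.5 UMIs against 11669 and 10074. Lhx1 stood at 43.5 and 53.2 UPM in germ cells of E11.5 and E12.5, against 0.184 and 0.117 elsewhere.

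Wfdc2 and Ret were also found in germ cells. Germ cells held 75 of 184 Wfdc2 UMIs at E11.5 and 205 of 284 at E12.5, with 25.9 and 24.0 UPM against 5.02 and 3.08 elsewhere. Both Ret UMIs of E11.5 and 15 of 18 of E12.5 were in them, the latter 1.75 UPM against 0.117. Gfra1, the co-receptor, gave 1 UMI in germ cells at E11.5 and 0 of 58 at E12.5. All 4 cells of E12.5 with 3 members or more held Lhx1, Wfdc2 and Dppa3, a germ line marker, and 3 of these held Ret.

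Gfra1 lay in supporting-cell-like clusters of the later gonads, those with markers of pre-Sertoli cells. Clusters 2, 14 and 6 of E11.5 held 25, 7 and 6 of 44 UMIs, and clusters 0 and 8 of E12.5 held 35 and 20 of 58. Sox9, the Sertoli cell factor, was in 31 of 38 Gfra1 cells at E11.5 (81.6% against 35.7%) and in 50 of 54 at E12.5 (92.6% against 31.5%). The level of Gfra1 over a whole library was flat, and at E10.5 its 59 UMIs were spread, with 17 in the neural-like cluster 8, 11 in cluster 7, 9 in the muscle-like cluster 15 and the rest over other clusters.

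Osr1 lay in mesenchyme and coelomic cells. At E10.5 its UMIs were spread over cluster 3 (220), cluster 7 (190, led by Barx1, Hoxb1, Isl1, Foxf1 and Cxcl13) and cluster 4 (176). At E11.5 the interstitial-like cluster 1 held 86 of 118 UMIs, 36.3 UPM against 1.44 elsewhere, and at E12.5 the interstitial-like cluster 4 held 60 of 102, 31.4 against 1.30. Gata3 at E10.5 was carried by clusters 0 (249 UMIs) and 10 (112), both led by Wnt2, Pitx1 and Irx3 in some order (genes named after their values were seen), beside the 124 UMIs of cluster 12. Wnt2 was in 40.4% of Gata3 cells against 8.58% of the rest. The highest level of Gata3 was nonetheless that of cluster 12, 109 UPM (90.5 to 130) against 73.4 in cluster 0.

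Ret and Lhx1 at E10.5 were partly neural. The neural-like cluster 8, led by Tubb3, Stmn2 and Ckb, held 22 of 41 Ret and 33 of 85 Lhx1 UMIs. Ret was in 15 of 78 cells with at least 4 of 8 neural markers (19.2%) against 0.532% of the rest, and in 1 Pax8 cell only. Cluster 8 alone thus held 53.7% of the Ret counted at E10.5.

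Pax8 in the later gonads and at D6 was concentrated in a small cluster each. At E11.5, cluster 13 (46 cells, led by Plac8, Pax8, C1qtnf12, Htra1 and Wnt4), named from the supporting-like cell markers without Pax8, held 64 of 116 UMIs, with Pax8 in 69.6% of its cells and 182 UPM (140 to 233) against 2.14 elsewhere. At E12.5, cluster 11 (112 cells, led by Cpe, Serpinb6b, Ibsp, Ccl17 and Mid1ip1), left unnamed, held 39 of 73, 36.2 UPM against 1.03. At D6, cluster 9 (101 cells, led by Pax8, Rmst, Htra1, C1qtnf12 and Sema3c), with the supporting-like markers, held 127 of 196, with Pax8 in 55.4% of cells and 307 UPM (256 to 365) against 6.00. In the cluster of E11.5, Gata3 gave 9 of its 32 UMIs, 25.6 UPM against 0.947 elsewhere.

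**Figure D5:**
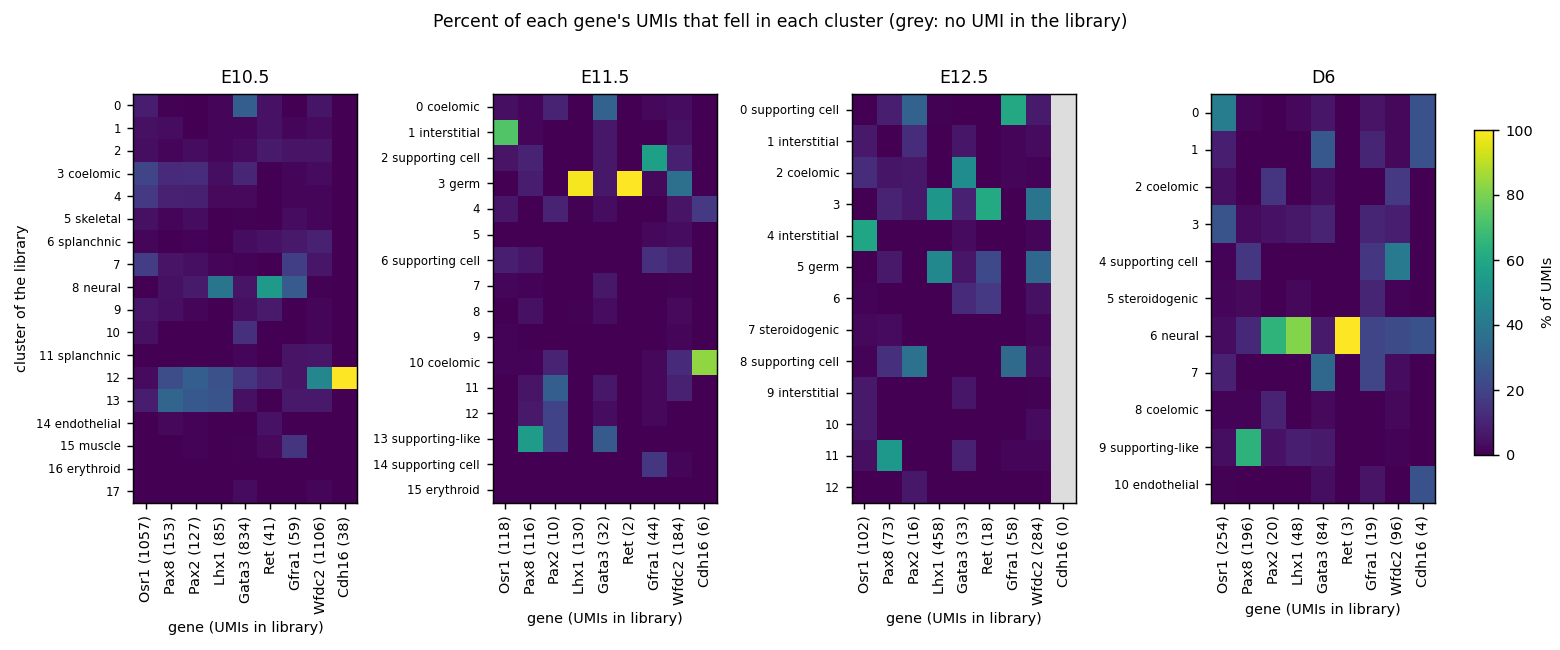
Percent of each member's UMIs that fell in each cluster, 1 panel per library, with the UMIs of the library in brackets; names stand for clusters that resemble that class by markers, and numbers alone for unnamed clusters. Cdh16 falls wholly in cluster 12 at E10.5, Lhx1 in the germ-like cluster 3 at E11.5, and Pax8 mainly in cluster 13 at E11.5 and cluster 9 at D6; columns with few UMIs, such as Ret at E11.5 (2) and D6 (3), rest on single cells.

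A few cells outside E10.5 did carry epithelial members. At E11.5, 1 cell in cluster 10 held 17 Wfdc2, 4 Cdh16, 14 Epcam and 1 Pax8 UMIs, so that 4 of the 6 Cdh16 UMIs of that library came from 1 cell of 2101. At D6, 4 cells held 3 members or more. In 3 of them, in the neural-like cluster 6, Pax2 gave 4, 5 and 3 UMIs, Lhx1 12, 10 and 0, Pax8 0, 3 and 2, and Epcam 0. Of these 3, 2 held Tubb3 (9 and 8 UMIs) and Elavl3 (9 and 1), and the third held neither. The other cell, in cluster 3, held 4 Pax8, 3 Lhx1, 1 Wfdc2 and 1 Osr1 UMIs and none of Tubb3 or Elavl3. Only 5 cells of D6 held at least 4 of 8 neural markers, so at most 5 of the 162 cells of cluster 6 passed that limit. Cluster 6 held 39 of the 48 Lhx1, 13 of the 20 Pax2 and all 3 Ret UMIs of D6. Most of the Pax2 and Lhx1 level of D6 thus rested on 4 and 7 positive cells of this cluster of 162 cells, and so does the ratio of Pax2 to the later gonads. The remaining D6 members lay elsewhere, Osr1 in cluster 0 (108 of 254 UMIs, led by Dcn, Mgp, Slc40a1, Mfap4 and Col6a2) and Wfdc2 in the supporting-cell-like cluster 4 (39 of 96).

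Other genes of the nephric programme were read from lists. Of 19 listed nephric specification and duct genes with enough UMIs, 13 were at least 2-fold higher at E10.5 than at E11.5 and 3 lower, beside 10.7 and 16.9% of all genes. Sim1, a duct factor, gave 95 UMIs at E10.5 and 0 in each other library. Six2 gave 80 against 3 and Wnt9b 15 against 0. The lower ones were Wt1, Wnt11 and Calb1, the last at 8.27 UPM against 19.7. Against E12.5, 11 were higher and 4 lower, beside 11.1 and 17.3%. In Pax8 cells of E10.5, 13 of 19 were detected at least 2-fold more often and 1, Wnt11, less often, where 10.3% of all genes were more often detected, among the 13 Calb1 (14.7% against 0.909%) and Osr2 (29.5% against 3.69%). In Pax8 cells of the other libraries, 4 of 13, 2 of 15 and 4 of 12 were more often detected, beside 7.61, 8.09 and 8.52% of genes, and 3, 4 and 3 less often. The share of all genes less often detected was not computed for any library. At E12.5 Hoxd11, Calb1 and Mecom were in 0 of 44 Pax8 cells and in 0.956, 1.10 and 0.846% of the rest, shares too low for so few cells to read.

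Epithelial genes split. Of 11, 7 were higher at E10.5 than at E11.5, among them Krt8 (76.1 against 30.6 UPM) and Cldn6 (26.2 against 10.6), and 2 lower, Spint2 and Esrp1, beside the same 10.7 and 16.9%. In Pax8 cells 8 of 11 passed at E10.5, beside 10.3% of genes, with Epcam in 33.7% against 7.48%. In the other libraries 1 of 10, 0 of 10 and 1 of 5 passed, beside 7.61, 8.09 and 8.52% of genes. At D6, 7 of 10 were at least 2-fold below E11.5, Epcam at 5.04 against 42.1 UPM, beside 10.1% of genes. None was higher, where 30.1% of genes were. Epcam at E11.5 was in 81 of 84 Lhx1 cells (96.4% against 11.3% of the rest), and 80 of those 84 cells were germ cells by the markers. Germ cells numbered 178 at E11.5 and 2 at D6, and their part in the lower Epcam level was not tested.

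Of 12 genes read in the GDNF list, 1 was higher at E10.5 than at E11.5 (Artn, 47 against 6 UMIs) and 4 lower (Gfra2, Spry2, Etv4 and Etv5), beside 10.7 and 16.9% of all genes. Gdnf, the ligand, was at 2.49, 4.39, 6.15 and 0.756 UPM. Gfra2, a related co-receptor, was at 0.984, 3.74, 14.5 and 5.04 UPM. In Pax8 cells of E10.5, 4 of 12 passed, beside 10.3% of genes, Gdnf (4 cells), Spry1, Etv4 and Etv5, the latter 3 being known responses to receptor tyrosine kinase signalling. Of 10 gonadal genes, 0 were higher and 8 lower at E10.5 than at E11.5, again beside 10.7 and 16.9%.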

How the data were processed

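Single-cell RNA-seq of 4 libraries was used, 1 per condition: XY gonads of 3 embryonic stages and D6 cells. The deposited matrices hold counts of UMIs per gene and barcode, which the authors made with Cell Ranger on mm10 (version 3.0.2 per the labels, 6.0.0 per the file headers). The limits stated by the study were applied to genes per cell (E10.5 1000 to 4000, E11.5 500 to 5000, E12.5 2000 to 5000, D6 1000 to 4000) and mitochondrial percent (under 10, 20, 8 and 12). The members and lists were chosen with earlier results of these data known.

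UMIs were summed over retained cells and divided by the library's total. UMIs from a 3′ kit are tags per molecule, so levels were not compared between genes. No test between conditions was possible with 1 library each, and cells were not used as replicates. A gene was counted past 2-fold if it had at least 20 UMIs over both libraries, or, for co-detection with Pax8, was found in at least 20 cells. A count of 0 was given the limit of 3 counts. Named genes were the members, the listed genes, the 5 most like Pax8 or cells with 3 members by phi, and the 5 leading genes of a cluster highest in a member. Listed genes include the cell type markers.

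Each library was clustered by itself with numpy 2.4.6, scikit-learn 1.9.0 and leidenalg 0.10.2. The settings were 2000 variable genes without members and markers, 10 principal components, a graph of shared neighbours (20 per cell) and Leiden resolution 1. A cluster was named from markers at a mean log2 difference of at least 1 with at least 3 markers past 2-fold. Further limits were set after the clusters were seen: a lead of at least 0.5 over the next class, fewer than 2 markers of other classes among the leading genes, and no shallow cells. The limit of 4 markers for germ, endothelial and neural cells and the split of clusters 12 and 13 were also chosen after the data were seen. Doublets were kept and called by Scrublet (scanpy 1.11.5) only as an alternative. The steps were checked on simulated counts. Tools were Python 3.11.15, scipy 1.17.1 and edgeR 4.0.16 (TMM factors only). Positions and promoters came from GENCODE vM21 and RefSeq. Results for some listed genes are not reported here.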

Additional observations from a re-analysis of the deposited data

How the results depend on the processing

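The count of 6 members higher at E10.5 than at E11.5 was 6 under all 6 alternatives: all barcodes, the same cell limits in every library, no called doublets, TMM factors, totals without mitochondrial and globin genes, and no UMI minimum. TMM factors moved 7 of 36 levels past their intervals and the other scalings none. Depth limits the shares. Thinned to 1500 UMIs, the share of cells with Pax8 was 0.521, 0.819, 0.470 and 2.32% (E10.5 first, D6 last), and with at least 2 UMIs asked for it was 0.834, 1.00, 0.470 and 2.01%. Cells with at least 3 members were 0.208, 0, 0 and 0.0438% after thinning, and 0.704, 0 and 0% in the embryos with at least 2 UMIs. After thinning, 2 of 3 members passed 2-fold in Pax8 cells at E10.5 and 0 of 2 at E12.5, beside 17.2 and 19.1% of genes. At E11.5 no member then reached 20 cells, so none could pass. With at least 2 UMIs, 3 of 4, 0 of 3, 0 of 2 and 0 of 1 passed, beside 20.5, 12.0, 7.48 and 17.2%. Fewer members were read than in the main count because fewer genes then reach 20 cells. With genes in at least 5 cells, 2 of 6 passed at E11.5 and 4 of 6 at D6, beside 11.2 and 12.48% of genes. With all barcodes 3 of 5 passed at E11.5 (14.0% of genes), and without the cells of highest Scrublet score 1 of 3 at D6 (8.84%). Pax8 at D6 had 73.5% of its UMIs in 1 cluster at resolution 0.5, a cluster of 158 cells led by Sst, Pax8, Ina and Rmst that joins neuronal and Pax8 cells, and Lhx1 at E11.5 had 57.7% at resolution 2, where the germ-like cluster splits. No paired analysis was possible because each condition was 1 library.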
